A study of Saccharomyces cerevisiae with 2 samples.

Results

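The genes described here encode the yeast poly(A)-binding protein Pab1, both subunits of the Pan2-Pan3 complex and 6 subunits of the Ccr4-Not complex, the enzymes that shorten poly(A) tails. They were taken by name, as the open reading frames (ORFs) called PAB1, CCR4, POP2, CDC39, NOT3, NOT5, CAF40, PAN2 and PAN3 in the tables of both replicates. All 9 were found among 5798 ORFs, and all 9 belonged to the 4939 ORFs with at least 100 reads downstream of the stop codon in each replicate, called the genes used below. The samples were 2 biological replicates of 1 Saccharomyces cerevisiae strain, JZY65 (genotype Δrpb4), from log-phase cultures in rich medium (YPD) at 30 °C. In both replicates RPB4 was deleted, the gene of the polymerase II stalk subunit Rpb4. Poly(A) positions were mapped in total RNA by 3' READS, which sequences the ends of polyadenylated RNAs. Each read is taken to mark where a tail was added, which was not tested for single positions. No parental strain was analysed here, so every value is a level or position within the deletion strain and none is an effect of the deletion.

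Pab1 coats the poly(A) tail of messenger RNAs in the cytoplasm and binds the translation initiation factor eIF4G. The Pan2-Pan3 complex, which Pab1 stimulates, trims long tails, and the Ccr4-Not complex removes most of the rest, after which an mRNA can be decapped and degraded. In Ccr4-Not, Ccr4 and Pop2 (also called Caf1) are the nuclease subunits, Cdc39 (also called Not1) is the scaffold, and Not3, Not5 and Caf40 are further subunits bound to it. The reads describe where the mRNAs of these genes ended. They do not measure the length of any poly(A) tail.

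The 400 nt windows downstream of all ORFs held 27375875 reads in replicate 1 and 24905701 in replicate 2, and the 9 genes had 55568 and 41092 of these, or 0.203% and 0.165%. The median gene used had 1402 and 1366 window reads. RPB4 (YJL140W) had 0 reads inside its ORF in both replicates, which allows up to 0.0669% and 0.0738% of its reads there. Its window, which lies outside the deleted sequence, held 4486 and 4066 reads and so checks nothing about the genotype. The 0 reads inside the ORF do not settle the genotype either, because a gene that was not deleted can have 0 there. LTP1, the convergent neighbour of NOT5, had 0 ORF reads in both replicates with 2520 and 2575 window reads. The coordinates printed are the files' own. They equalled those of the RefSeq assembly R64 for all 9 genes.

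The 9 mRNAs spanned a wide range of abundance. Levels are given in RPM, a gene's window reads scaled to a total of 1000000 for all ORF windows, and are not divided by gene length because each RNA molecule gives reads from its 3' end only. CAF40 had the highest level, with 920.8 RPM in replicate 1 and 433.1 RPM in replicate 2 (mean 677 ± 345, SD, n = 2). NOT5 followed with 554 and 630.9 RPM (592 ± 54.4), and PAB1 had 288.9 and 303.7 RPM (296.3 ± 10.4). These 3 genes lay above 94.5%, 93.7% and 87.1% of the genes used.

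CDC39, which encodes the Ccr4-Not scaffold, had 95.1 and 112 RPM (103.6 ± 12.0). PAN3, for the regulatory subunit of the Pan complex, had 58.3 and 48.2 RPM (53.3 ± 7.13), and NOT3 had 44.1 and 43.2 RPM (43.7 ± 0.625). The mRNAs of the 3 nucleases were the least abundant of the 9. CCR4 had 29.3 and 32.3 RPM (30.8 ± 2.14), POP2 had 22.9 and 28.7 RPM (25.8 ± 4.10), and PAN2, the catalytic subunit of the Pan complex, had 16.3 and 17.8 RPM (17.1 ± 1.03). The mean level of CAF40 was 39.7 times that of PAN2, and that of NOT5 was 34.7 times that of PAN2. In the order of levels, the ranges over the replicates overlapped for CAF40 and NOT5 and for no other neighbouring pair. With 2 replicates this is a description and no test.

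The median level of the 9 genes was 53.3 ± 7.13 RPM, against 52.9 ± 2.57 RPM for all genes used (SD of the replicates' medians, n = 2). A level above the median of all genes used was seen for 5 of the 9 genes, against 50.0% of the genes used. In RNA from a culture, fewer cells with an mRNA and less of it per cell cannot be told apart.

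**Figure D1:**
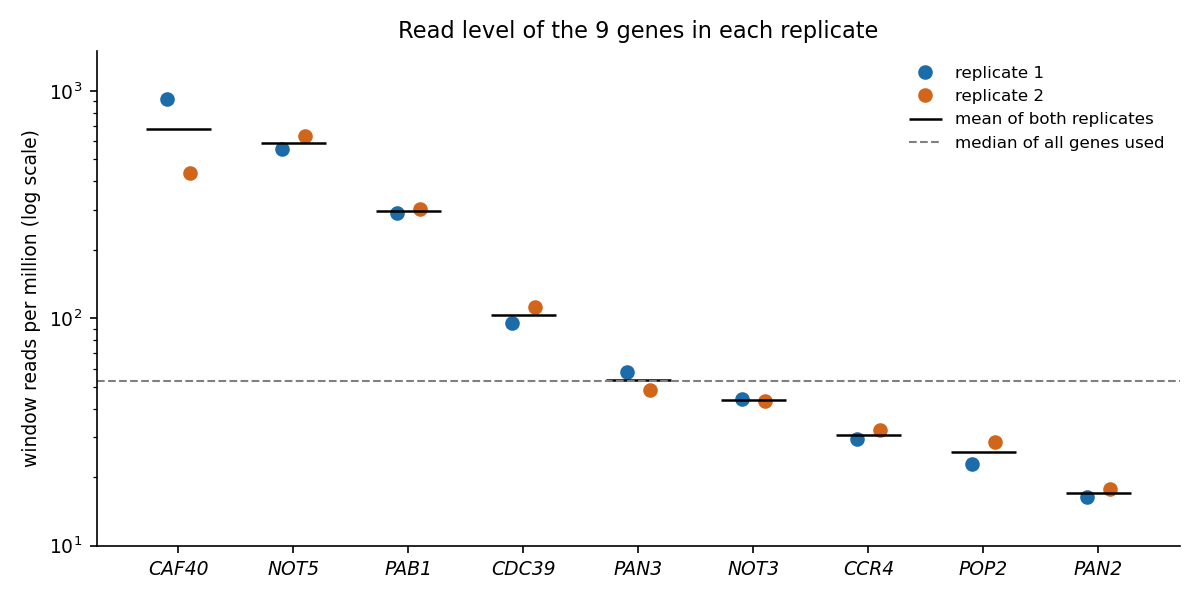
Levels of the 9 mRNAs in RPM on a log axis, with 1 point per replicate, a bar at the mean and the median of all genes used as a dashed line. CAF40 and NOT5 are at the top, PAN2 is at the bottom with 16.3 and 17.8, and the replicates of CAF40 stand farthest apart, at 920.8 and 433.1.

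CAF40 was also the gene whose level differed most between the replicates. Its 25209 and 10786 window reads gave a ratio of 2.13 between replicate 1 and replicate 2 after scaling to RPM. Among the 9 genes, CAF40 was the only one past 1.5-fold, as were 6.90% of the genes used, and it was past 2-fold, as were 1.05%. The mean position of its 3' ends, described next, was 96.0 nt after the stop codon in replicate 1 and 95.4 nt in replicate 2. What differed between these cultures or libraries was not tested.

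Where the mRNAs ended was described first by the mean endpoint, the mean position of a gene's window reads in nt after the stop codon. PAN3 had the shortest mean endpoint, 79.6 and 78.8 nt in the 2 replicates (79.2 ± 0.520 nt, SD, n = 2). NOT5 had 84.1 and 83.7 nt (83.9 ± 0.279), CAF40 had 95.7 ± 0.403 nt and CDC39 had 101.0 and 100.1 nt (100.6 ± 0.639). POP2 lay in the middle with 116.4 and 102.9 nt (109.6 ± 9.56), and PAB1 had 132.6 and 133.9 nt (133.3 ± 0.892). PAN2 had 151.6 and 148.7 nt (150.1 ± 2.05), NOT3 had 170.1 and 167.0 nt (168.5 ± 2.14), and CCR4 had the longest, 226.0 and 229.4 nt (227.7 ± 2.43).

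In this order no neighbouring genes overlapped in their replicate values, although POP2 alone differed by over 10 nt between the replicates, as did 9.60% of the genes used. The 3 nuclease genes did not share a position. CCR4 ended farther out than 89.5% of the genes used, PAN2 farther than 66.6% and POP2 farther than 39.6%. The 2 subunits of the Pan complex were likewise apart, with PAN3 farther out than 15.5% of the genes used. The median of the 9 genes was 109.6 ± 9.56 nt, against 122.8 ± 0.940 nt for all genes used. POP2 is the middle gene of the 9, so its replicate difference sets the SD of their median. PAB1, CCR4, NOT3 and PAN2, 4 of the 9, ended beyond the median of all genes used, against 50.0% of those genes. CCR4 was the only gene beyond 200 nt, as were 16.0% of the genes used.

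**Figure D2:**
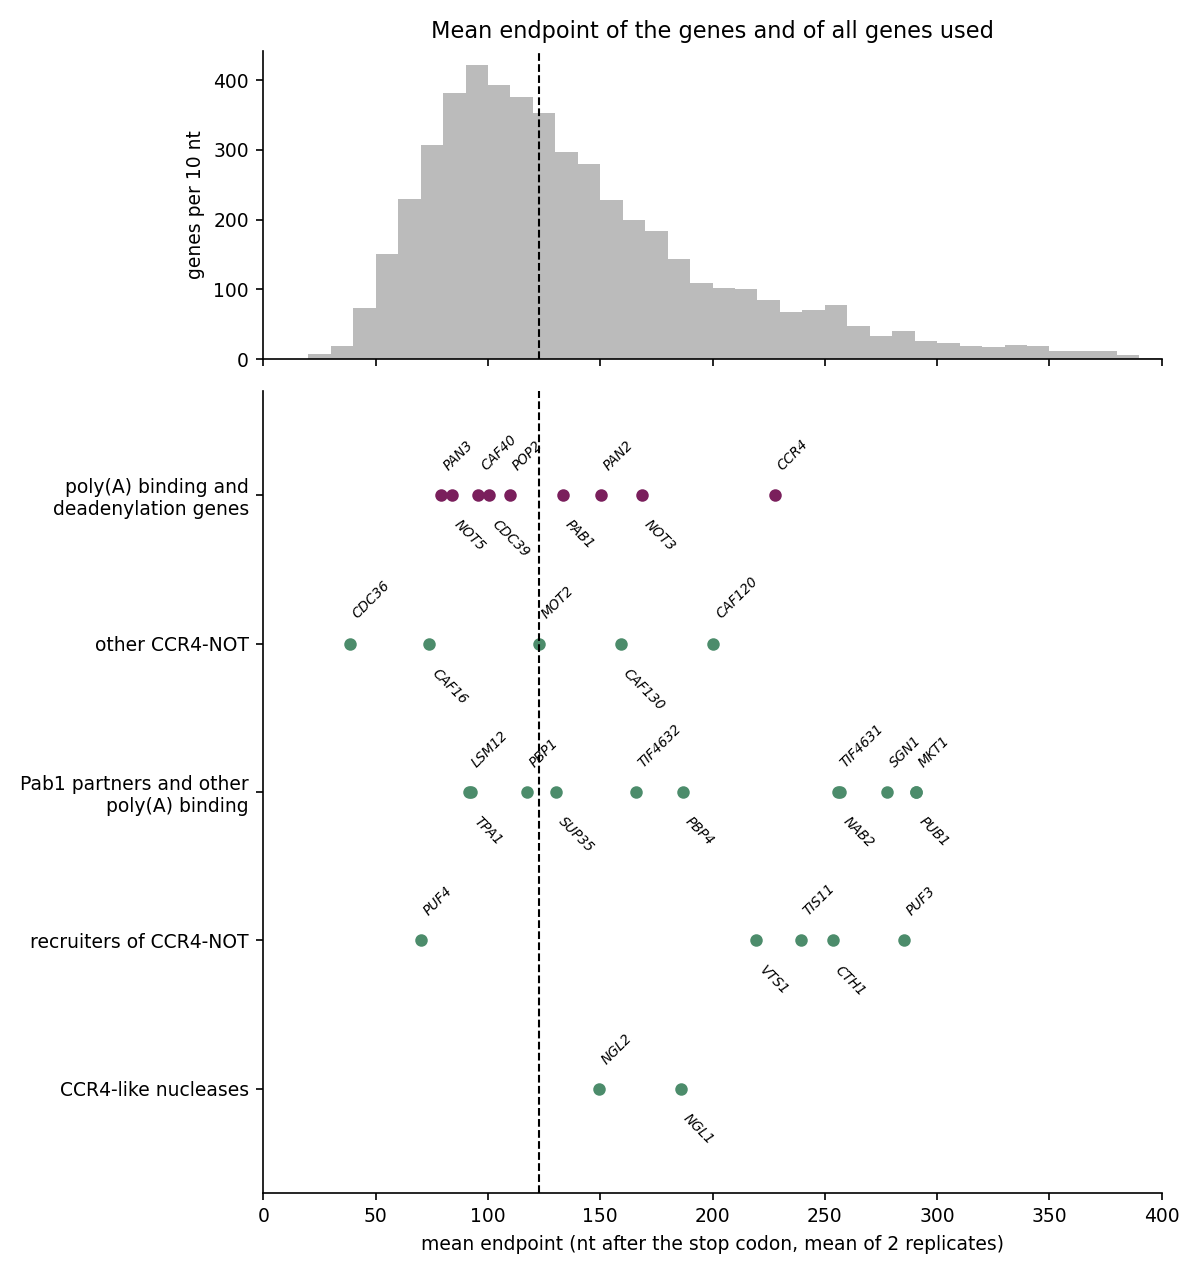
Mean endpoint in nt after the stop codon for the 9 genes and for the other genes of the same pathways, 1 point per gene at the mean of the 2 replicates. The histogram above counts all genes used in bins of 10 nt, with their median as a dashed line. The 9 genes run between 79.2 nt for PAN3 and 227.7 nt for CCR4, on both sides of the median of 122.8 nt.

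A mean does not show the separate sites that an mRNA uses, so positions within 10 nt of a local peak were counted together as 1 site. A site is named below by the distance of its peak from the stop codon. The Wilson 95% interval of each printed site share had a half-width of at most 4.61 points. The reads carry no molecular identifiers, so copies of the same molecule cannot be told apart. The intervals here treat each read as independent and can therefore be too narrow. They do not cover differences between cultures or libraries.

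PAB1 (YER165W, chromosome V, 510373 to 512106, plus strand) had 7909 and 7563 window reads. Its main site at 150 nt held 56.5% and 60.4% of them, with minor sites at 126 nt (10.5% and 9.44%) and 174 nt (10.7% and 9.33%). A separate upstream site at 54 nt held 19.6% and 17.9%. Between the reads around 54 nt and the rest, 39 consecutive positions had no read in either replicate. The PAB1 mRNA therefore ended in a proximal form and in a more abundant distal form, in like proportions in both replicates.

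**Figure D3:**
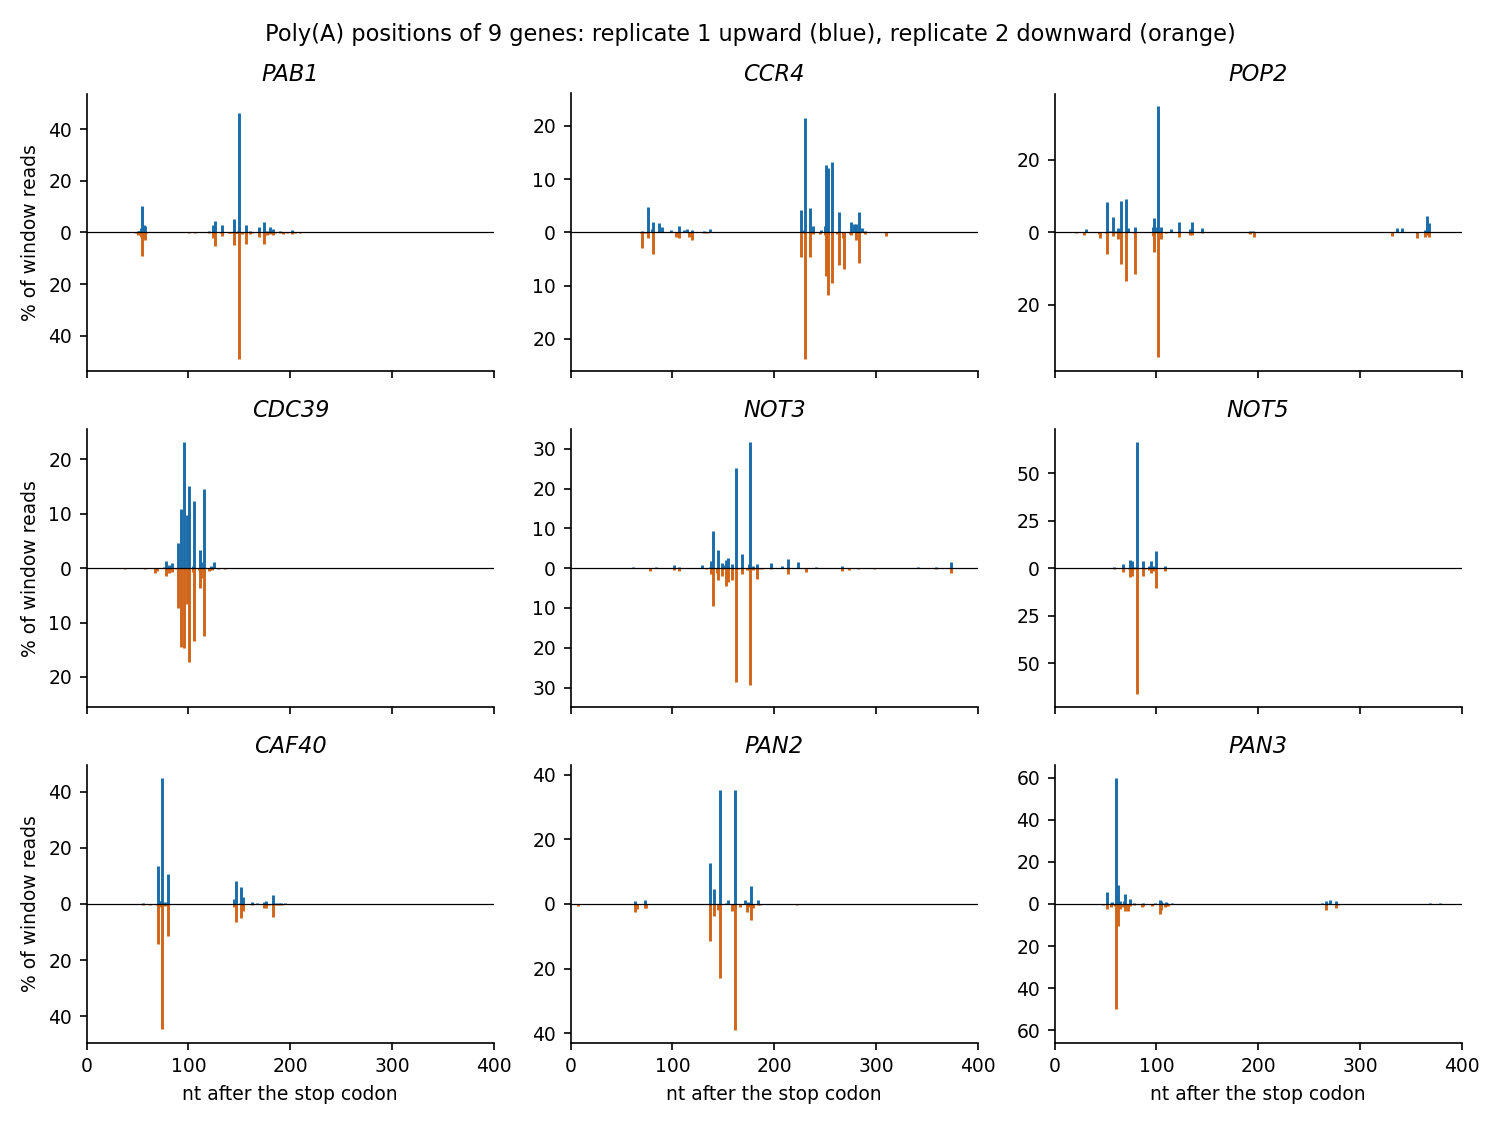
Share of each gene's window reads, in percent, along the 400 nt after the stop codon, with a panel per gene, replicate 1 drawn upward and replicate 2 downward. PAB1, CCR4, POP2 and PAN3 show clusters of ends separated by empty stretches, while NOT5 has 66.5% and 66.1% of its reads at a single position.

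The 2 nuclease genes of Ccr4-Not had spread-out 3' ends. CCR4 (YAL021C, chromosome I, 110846 to 113359, minus strand) had 802 and 805 window reads. Its site at 230 nt held 31.8% and 33.4% of them and the site at 253 nt held 39.5% and 30.4%. The site at 264 nt, which directly adjoins the one at 253 nt, held 3.74% and 14.5%, the most variable share of the gene. Within it, the position at 269 nt had no reads in replicate 1 and 6.96% in replicate 2. A proximal site at 81 nt held 10.1% and 5.34%, and all reads upstream of an empty stretch of 88 nt made up 14.3% and 12.8%. The effective number of CCR4, the count of equally used positions that would give the same Shannon entropy, was 14.4 and 13.9 (14.2 ± 0.370). It was the highest of the 9 genes, above that of 86.2% of the genes used.

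POP2 (YNR052C, chromosome XIV, 719346 to 720647, minus strand) had 627 and 715 window reads. The site at 102 nt held 43.4% and 43.2%, the site at 70 nt held 21.9% and 35.4%, and the site at 51 nt held 13.6% and 9.51%. A far site at 366 nt held 7.66% and 4.90%. It belonged to a distal group with 10.2% and 5.87% of the reads, beyond an empty stretch of 134 nt. Within the site at 70 nt, the position at 70 nt held 9.25% and 13.4% and that at 79 nt held 1.59% and 11.3%. More reads in that site and fewer in the distal group went with the lower mean endpoint of POP2 in replicate 2. Without positions beyond 300 nt its mean endpoint was 87.9 nt in place of 109.6 nt.

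The scaffold gene CDC39 (YCR093W, chromosome III, 280117 to 286443, plus strand) had 2604 and 2790 window reads. Nearly all lay close together, with 76.4% and 75.0% in the site at 96 nt and 20.5% and 19.6% in the site at 115 nt. No single base dominated, and the most used one was 96 nt after the stop codon in replicate 1 (23.2%) and 101 nt in replicate 2 (17.3%). This leading share, 20.3% ± 4.16, was the lowest of the 9 genes and lay above that of 12.0% of the genes used.

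NOT3 and NOT5, which encode related subunits, differed in where their mRNAs ended. NOT3 (YIL038C, chromosome IX, 280142 to 282652, minus strand) had 1208 and 1077 window reads, in sites at 176 nt (38.1% and 35.4%), 162 nt (31.3% and 39.7%) and 140 nt (18.3% and 17.4%). It was the only one of the 9 genes with at least 3 sites of 10% or more in both replicates, as were 26.5% of the genes used. NOT5 (YPR072W, chromosome XVI, 690107 to 691789, plus strand) had 15166 and 15712 window reads. Its site at 81 nt held 79.8% and 79.9% and the site at 100 nt held 16.9% and 17.0%.

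The single position 81 nt after the NOT5 stop codon took 66.5% and 66.1% of the reads, a share above that of 94.3% of the genes used. The effective number of NOT5 was 4.19 and 4.13 (4.16 ± 0.0419), the smallest of the 9 genes. Its profile was also the most repeatable of the 9, and no site share differed between the replicates by more than 0.185 points.

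CAF40 (YNL288W, chromosome XIV, 90303 to 91424, plus strand) used a proximal site at 74 nt for 73.0% and 74.1% of its reads. Sites at 147 nt (19.0% and 15.1%) and 183 nt (5.92% and 8.87%) made up most of the rest. At both of these sites the Wilson intervals of the replicates did not overlap. Reads beyond 15 empty positions in the middle amounted to 26.4% and 24.9%. The distal reads as a whole thus differed less between the replicates than the single sites within them.

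In the Pan complex, PAN2 (YGL094C, chromosome VII, 331118 to 334465, minus strand) had the fewest reads of the 9 genes, 447 and 443. They were divided between a site at 147 nt with 52.3% and 40.0% and a site at 161 nt with 38.0% and 42.2%. In replicate 1 both single positions held 35.3%. In replicate 2 the position at 161 nt held 39.1% and that at 147 nt held 23.0%. PAN3 (YKL025C, chromosome XI, 390240 to 392279, minus strand) had 1596 and 1201 window reads, of which the site at 60 nt took 83.8% and 74.1%. Its next site, at 104 nt, held 5.64% and 12.2%. A remote site at 267 nt held 5.83% and 4.83%, beyond an empty stretch of 101 nt, and all reads past that stretch made up 7.14% and 5.41%.

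Across the 9 genes, 7 had the same leading position in both replicates, against 83.8% of the genes used. The exceptions were CDC39, with leading positions 5 nt apart, and PAN2, where 2 positions were tied in replicate 1. At least 2 sites with 10% or more of the reads in both replicates were found for 8 genes, all except PAN3, against 70.5% of the genes used. CCR4, POP2 and PAN2 had a site whose share differed by over 10 points between the replicates, 3 of 9 against 17.0% of the genes used. These 3 also had the fewest reads of the 9 genes.

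CCR4, POP2 and PAN3 had clusters of ends, each with at least 5% of the reads in both replicates, on the 2 sides of at least 50 empty positions. This was 3 of 9 genes, against 7.77% of the genes used. The measure was chosen after these profiles were seen, so the count is a description. The 3 genes had between 627 and 1596 window reads, against a median of 1402 and 1366 for the genes used. In PAN2, with 447 and 443 window reads, the longest such stretch was 5 positions. Whether few reads make an empty stretch easier to find was not tested. The median leading share was 37.2% over the 9 genes (35.3% and 39.1% in the replicates), against 33.7% over all genes used (33.5% and 33.6%). It exceeded the median of the genes used in 6 of the 9, against 50.0%. The median effective number of the genes' means over the replicates was 9.37 for the 9 genes, with medians of 8.88 and 9.07 in the single replicates. Over all genes used it was 8.46, with 8.46 and 8.43. The effective number exceeded the median of the genes used in 5 of the 9, against 50.0%.

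CDC39 stood apart in the reads inside the coding sequence. It had 1896 and 1486 reads inside its ORF of 6327 nt, at 123 and 91 positions. They were 42.1% (Wilson 95% interval 40.7% to 43.6%) and 34.8% (33.3% to 36.2%) of its ORF and window reads. The share of CDC39 lay above that of 96.9% of the genes used and was the only one of the 9 over 10% in both replicates, against 13.1% of the genes used. Over 30% in both replicates was found for 4.09% of the 4911 ORFs used whose coding sequence overlaps no other feature on its strand, CDC39 among them.

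CDC39 is a long gene, so it was also set beside other long genes. Over the 64 ORFs used of at least 5000 nt without overlap, the median share was 10.4%, and 11 had a share at or above that of CDC39 in both replicates. CDC39 had 267.3 ORF reads per kb, against a median of 29.6 in these long ORFs, of which 2 had more. Unlike the share, reads per kb are not scaled to the level of an mRNA, and the levels of these long ORFs were not compared. Whether reads inside the ORF mark tails added inside the gene was not tested.

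The other 8 genes had smaller shares of reads inside the ORF than CDC39. By the mean of the replicates, PAN2, NOT3, CCR4, PAN3 and POP2 lay above the median of all genes used. The means of PAB1, NOT5 and CAF40 lay below it. PAB1 had 0.189% and 0.448%, CAF40 had 0.111% and 0.204%, and NOT5 had 0.649% and 0.846%. PAN2 had 3.25% and 7.71%, and NOT3 had 3.67% and 5.61%. For CCR4 the share was 1.35% (Wilson 95% interval 0.757% to 2.41%) in replicate 1 and 5.52% (4.17% to 7.26%) in replicate 2. POP2 had 2.18% and 0.279%, and PAN3 had 1.78% and 2.91%. The intervals of the replicates did not overlap for PAB1, CCR4, POP2, CDC39 and PAN2. The median over the 9 genes was 2.35%, against 1.19% over all genes used.

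**Figure D4:**
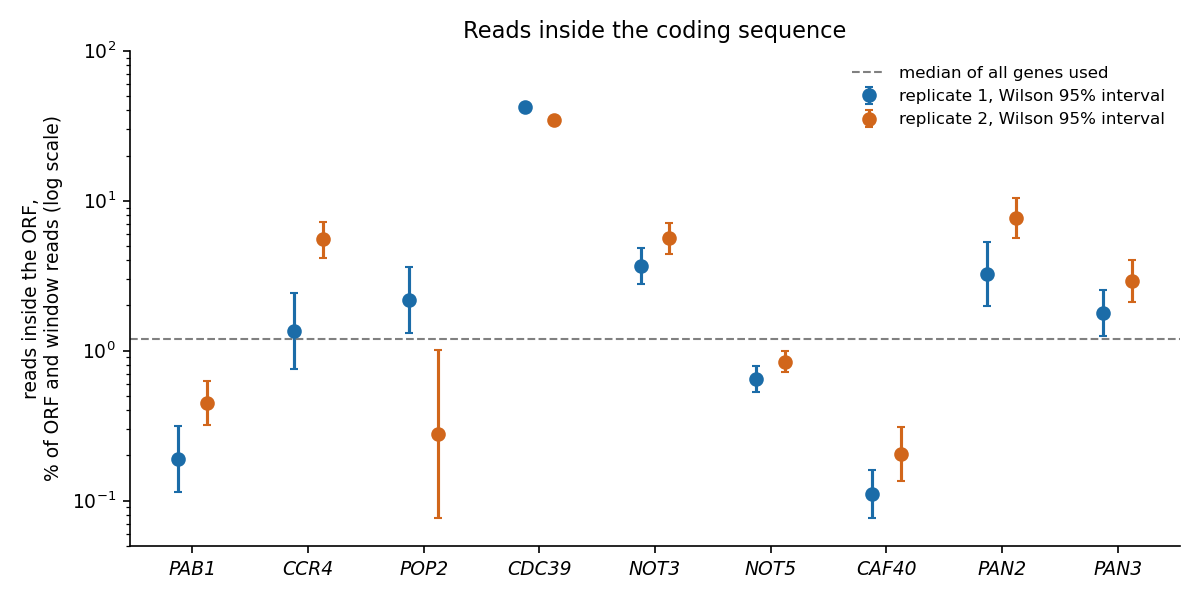
Reads inside the ORF as a percent of a gene's ORF and window reads on a log axis, 1 point per replicate with its Wilson 95% interval, and the median of all genes used as a dashed line. CDC39 lies at 42.1% and 34.8%, and all other points are below 8%.

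The gene that follows sets how much of the window can be read without doubt. The next annotated feature lay a median of 416 nt beyond the 9 stop codons, against 278 nt for the 4607 genes used with a distance above 0. The mean endpoint took up a median of 29.4% of that distance, against 47.3%. POP2 used the smallest part, 10.8% of the 1019 nt to BRE5, and CAF40 used 16.8% of the 570 nt to SEC21. CCR4 used 54.7% of the 416 nt to FUN26, NOT3 57.1% of the 295 nt to TED1 and NOT5 58.3% of the 144 nt to LTP1. The windows of CDC39 and PAN3 reached into the next gene on the same strand, CDC50 after 319 nt and GPX1 after 357 nt, 2 of 9 genes against 23.8% of the genes used. In the overlap CDC39 had 0 reads in both replicates, and PAN3 had 16 and 0.

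NOT3 and NOT5 face a convergent gene, whose mRNA ends toward theirs, within the window, 2 of 9 genes against 46.7% of the genes used. The mean endpoints of NOT3 and TED1 added up to 280.4 and 281.4 nt, less than the 295 nt between their stop codons. Only 2.40% and 1.30% of the NOT3 reads ended past the stop codon of TED1. The mean endpoints of NOT5 and LTP1, a protein phosphatase gene, added up to 305.2 and 309.7 nt, more than the 144 nt between them. Sums above the distance were found for 75.8% of the 2010 genes used in such pairs.

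The overlap came from the LTP1 side. NOT5 had 0.290% and 0.127% of its reads past the LTP1 stop codon. LTP1, with 2520 and 2575 window reads and a mean endpoint of 221.1 and 226.0 nt, had 99.96% and 99.6% of its reads on the far side of the NOT5 stop codon, within the coding sequence of NOT5 on the opposite strand. NOT5 itself was counted with 99 and 134 reads inside its ORF. That is fewer than the LTP1 reads lying there, so the ORF counts of NOT5 did not include reads of the opposite strand.

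The remaining Ccr4-Not genes CDC36, MOT2, CAF130, CAF120 and CAF16 were all used, and 2 of the 5 ended beyond the median of all genes used, against 50.0% of those genes. CDC36, also called Not2 and the partner of Not5 in the complex, had the shortest mean endpoint, 38.5 and 38.6 nt (38.5 ± 0.128), with a leading position at 38 nt in both replicates. Its level was 499.5 and 470.4 RPM, below the 554 and 630.9 RPM of NOT5. CAF16 had 73.9 ± 0.501 nt. CAF130 had 159.1 ± 1.09 nt and CAF120 had 200.3 ± 2.36 nt. The windows of these last 3 genes overlap the next gene on the same strand, and of the window reads of CAF130, 110 and 99 lay in the overlap, as did 47 and 35 of those of CAF120 and 0 of those of CAF16.

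The genes listed as direct or indirect partners of Pab1 or as other poly(A)-binding proteins ended farther out as a list. Of 11 genes, all used, 8 ended beyond the median of all genes used, against 50.0%, and 5 ended beyond 200 nt, against 16.0%. Their median endpoint was 186.8 ± 0.746 nt, against 122.8 ± 0.940 nt for all genes used. The longest were MKT1 (290.7 ± 0.0210 nt) and PUB1, a poly(U)- and poly(A)-binding protein (290.7 ± 0.618 nt). The shortest were TPA1 (92.6 ± 0.210 nt) and LSM12 (91.6 ± 0.894 nt). PAB1 itself, at 133.3 nt, lay below the median of this list.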

How the data were processed

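The 9 genes and the pathway lists were chosen with earlier results of these data known. The authors deposited 1 table per replicate and 1 with both pooled, each with 6198 features. The submitters' processing notes name Bowtie. Not given in the sources used here are its version and settings, the genome build, the annotation and how multiply mapping reads were treated. Per the file headers, the authors gave the reads in each feature, in the 400 nt after it and at its most used position, and these deposited signal values were reads multiplied by 1 factor per library, 0.858 and 0.940. What the factor was for is not stated. Dividing by it gave whole reads, within 0.1, for 99.8% and 99.9% of values. With 1 group no count test could be run. The positions are, per the file headers, in percent of the gene's most used position.

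From the recovered reads, level, mean endpoint, leading position, effective number (the exponential of the Shannon entropy), merged sites, empty stretches and reads inside the ORF were computed with Python 3.11.15, numpy 2.4.6, pandas 2.3.3 and scipy 1.17.1. An ORF was used if both replicates had 100 or more window reads for it. The most upstream position was taken in ties. Mean endpoints differed from the deposited ones by at most 0.00646 nt for the 9 genes. The endpoint calculation was run on simulated profiles moved downstream by known distances. A mean moves with its profile, so this checks the arithmetic only. The measures of sites, empty stretches and convergent neighbours were chosen after the data were seen. All 9 genes are named, with the neighbours whose distance is given and the 2 shortest and 2 longest genes of each list. MOT2, TIS11, MPT5 and NGL3 are named after their values were seen, the last 2 because they had too few reads. The shares of all genes used stand beside the counts as background. No sequence is shown, because no sequence of these genes was used here.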

Additional observations from a re-analysis of the deposited data

How the results depend on the processing

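The counts of the 9 genes mostly moved little. Some medians moved with the measure, mainly the leading share with sites merged and the effective number. The median mean endpoint was 100.6 nt with positions 1 to 300 only, 109.7 nt with positions 21 to 400, 109.2 nt in the pooled table and 102.9 to 116.4 nt with 1 replicate left out, where it is the value of POP2. It was 100 nt with each gene's median position in place of the mean. Under the same settings the median of all genes used was 119.7, 123.2, 122.9, 122.3 to 123.6 and 118 nt. Each time it lay above that of the 9 genes. The count of genes beyond the median of all genes used was 4 of 9 in every alternative except 2. It was 4 of the 7 genes kept without windows that overlap another gene on the same strand, and 2 of the 6 kept with a minimum of 1000 window reads. The same leading position was found for 6 genes with sites merged, against 92.0% of the genes used, for 8 within 5 nt, against 87.6%, and for 7 otherwise. The median leading share was 58.5% with sites merged within 10 nt, 37.2% in the pooled table and 35.3% to 39.1% with 1 replicate left out. The median effective number was 9.51 in the pooled table, 8.88 to 9.07 with 1 replicate left out, 6.30 over positions with at least 1% of reads and 4.10 as the inverse Simpson number. CAF40 was the 1 gene past the fold threshold between replicates under each alternative run. No paired analysis was possible because there was only 1 group.

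CCR4, POP2 and PAN2, with 443 to 805 window reads, carry the widest counting intervals. Ends beyond 400 nt lie outside the measurement.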

Other observations

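RNA-binding proteins that recruit Ccr4-Not to chosen mRNAs had mostly long 3' ends themselves. Of 6 genes on this list 5 had enough reads, and 4 of these 5 ended beyond 200 nt, against 16.0% of the genes used. PUF3, a Pumilio protein that binds mRNAs for mitochondrial proteins, had a mean endpoint of 288.8 and 281.3 nt (285.1 ± 5.30, SD, n = 2), and its leading position lay at 397 nt in both replicates, close to the end of the window. CTH1, which acts in iron deficiency, had 253.4 ± 2.97 nt and VTS1 had 219.5 ± 4.99 nt. PUF4 was the exception with 70.1 ± 0.0615 nt. TIS11, also called CTH2 and a paralog of CTH1, differed in level between the replicates, with 22.4 and 52.2 RPM. MPT5, another Pumilio gene, had 27 and 17 window reads and was not used, while 352 and 330 reads, or 92.9% and 95.1%, lay inside its annotated ORF.

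Of the Ccr4-like nuclease genes, NGL2 (149.5 ± 1.89 nt) and NGL1 (185.8 ± 7.27 nt) ended beyond the median of all genes used. NGL1 had reads at many positions, with an effective number of 23.4 and 18.1, and 15.7% and 18.5% of its reads lay inside the ORF. NGL3 had 110 and 72 window reads and was not used.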
